A study of Mus musculus with 6 samples.

Results

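The genes of the proteasome were followed in regulatory T cells (Treg) recovered from the spleen 3 weeks after a bone marrow graft. Genes were taken from the deposited count table by symbol, as Psm followed by a letter from a to g and a digit, without the rows whose symbol carries -ps. This gave 49 of 29199 genes, of which 48 were abundant enough to be tested among 18321 genes. Psma8 was the 1 gene not tested. Psmb11, Psme2b and Paaf1 were not analysed here. The symbol rule also takes in Psmc3ip and Psme3ip1, partners of subunits or activators that are not proteasome subunits themselves.

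Recipients were irradiated B6 mice, which the study's methods give as C57BL/6 J or CD45.1+ B6, reconstituted with an equal mixture of C57BL/6 J and semi-allogeneic B6D2F1 marrow. They also received wild-type (WT) Treg and naive conventional CD4 T cells (Tconv). The Tconv were WT in 3 libraries and HP1α knockout (KO) in the other 3, and every Treg was WT. The Treg came from B6 Foxp3-Thy1.1 mice and had been expanded ex vivo for 3 days with IL-2, TGFb1 and anti-CD3/CD28 beads, then for 5 to 7 days without beads. The KO allele was a floxed Hp1a excised with CMV-cre and bred through the germline, in a line of 129/Sv x C57BL/6 descent. The WT and mutant littermates were 6 to 12 weeks old, and no age is given for the recipients or the Treg donors. The labels do not say whether the libraries of a group came from separate recipients, so p-values measure the spread between these libraries.

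The proteasome degrades ubiquitin-tagged proteins. Its 20S core is a barrel of 2 outer alpha rings and 2 inner beta rings, the beta rings holding the proteolytic sites, and the 19S particle recognises, unfolds and feeds substrates into the core. In lymphocytes and in cells that have met interferon, Psmb8, Psmb9 and Psmb10 can take the places of Psmb5, Psmb6 and Psmb7 to form the immunoproteasome, whose cuts favour peptides for MHC class I. Psme1 and Psme2 encode PA28, an activator that caps the core.

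Library totals ranged from 87421755 to 119078882 counts. The Treg marker Foxp3 was detected in every library at 158 to 254 CPM (counts per 1e6 library counts) and Ctla4 at 806 to 1322 CPM. A pair of libraries stood apart. In replicate 3 of Treg with WT Tconv the 7 red cell markers summed to 5585 CPM, against 373 to 694 CPM in the other libraries, and the 8 neutrophil markers to 1824 CPM, against 41.4 to 226 CPM. Mitochondrially encoded RNA of the HP1α KO Tconv group's replicate 2 summed to 9715 CPM, where the remaining 5 libraries were between 25158 and 28785 CPM. The part of either in the values below was not tested. In bulk RNA, a change in the number of cells of a type and a change in RNA per cell cannot be told apart.

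No proteasome gene passed the test between the groups. With edgeR's quasi-likelihood test, 0 of 48 members had an adjusted p-value under 0.05, and neither did any other gene (0% of 18321). At an unadjusted p under 0.05 there were 2 members that were higher with HP1α KO Tconv, against 6.98% of all genes, and 0 that were lower, against 7.52%. DESeq2 also called 0 members, while calling 4.35% of the genes to which it gave an adjusted p-value. The groups did not overlap for 5 members that were higher, against 11.5% of all genes, and for 2 that were lower, against 11.6%. The median log2 fold change was 0.02 over the members and -0.01 over all genes. The median of the absolute log2 fold changes was 0.10 over the members and 0.17 over all genes.

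**Figure D1:**
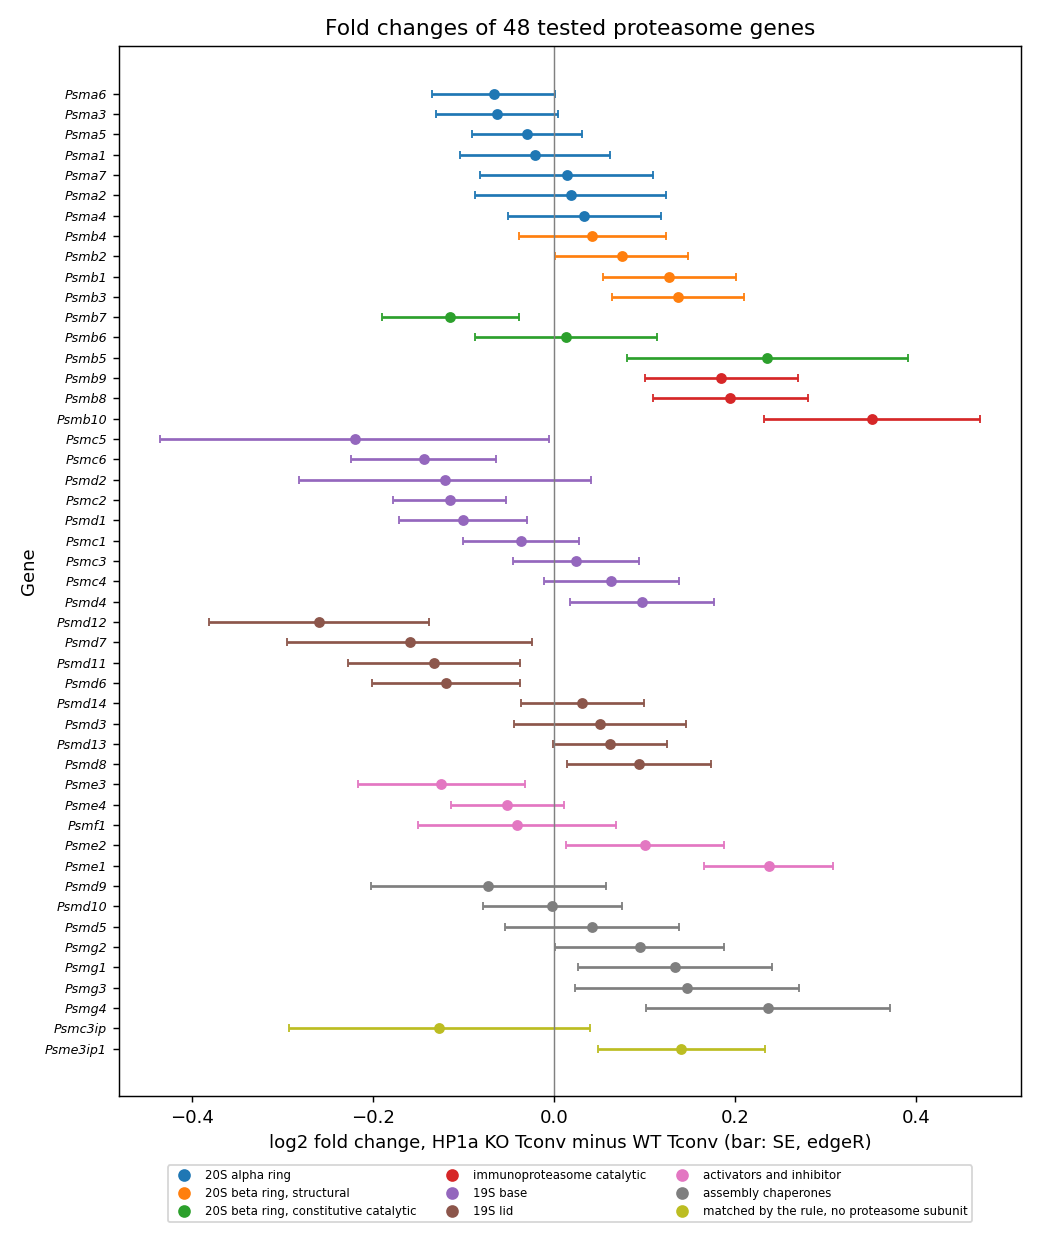
Log2 fold change of each tested proteasome gene, Treg with HP1α KO Tconv minus Treg with WT Tconv, grouped by role, with standard errors from edgeR as bars. All 48 genes lie between -0.26 (Psmd12) and 0.35 (Psmb10), and the 3 immunoproteasome genes lie above 0.

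The immunoproteasome catalytic genes were the role group with the highest median, 0.19 on the log2 scale over 3 genes and 0.11 without replicate 2 of the HP1α KO Tconv group. Psmb10 (ENSMUSG00000031897, GRCm39 chromosome 8, 106662362 to 106665077, minus strand) encodes the subunit that replaces Psmb7. It stood at 114, 120 and 120 CPM in replicates 1 to 3 with WT Tconv and at 139, 181 and 131 CPM with HP1α KO Tconv. All 3 KO Tconv libraries were above the WT Tconv libraries, and replicate 2 was the highest. The log2 fold change of Psmb10 was 0.35 ± 0.12 (SE), and edgeR gave an adjusted p of 0.256. Without replicate 2 with HP1α KO Tconv it was 0.20.

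Psmb8 (ENSMUSG00000024338, chromosome 17, 34416690 to 34420428, plus strand) encodes the chymotrypsin-like subunit that replaces Psmb5. It was at 365, 370 and 357 CPM with WT Tconv and at 389, 469 and 393 CPM with HP1α KO Tconv, without overlap. The log2 fold change was 0.19 with an edgeR adjusted p of 0.35, and 0.10 without replicate 2 with HP1α KO Tconv. Psmb9 (ENSMUSG00000096727, chromosome 17, 34400960 to 34406738, minus strand) lies beside Tap1 and replaces Psmb6. It was at 178, 186 and 169 CPM with WT Tconv and at 202, 222 and 183 CPM with HP1α KO Tconv, and the groups overlapped. Its log2 fold change was 0.18 with an edgeR adjusted p of 0.367, and 0.11 without that library. Opposite-strand exons cover 19.6% of the exonic bases of Psmb9 (Tap1) and 14.6% of those of Psmb8 (Gm20496), and whether the counting used strand is not given in the sources used here.

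The constitutive catalytic genes had no shared direction. Psmb5 was at 53.1, 50.5 and 50.5 CPM with WT Tconv and at 54.9, 76.7 and 49.9 CPM with HP1α KO Tconv, so that replicate 2 alone stood above the rest. Psmb6 was at 94.0, 94.3 and 97.1 CPM with WT Tconv and at 88.6, 112 and 87.3 CPM with HP1α KO Tconv. Psmb7 was at 117, 110 and 117 CPM with WT Tconv and at 106, 114 and 97.3 CPM with HP1α KO Tconv. Psmb5, Psmb6 and Psmb7 had log2 fold changes of 0.24, 0.01 and -0.11 in that order, and the lowest edgeR adjusted p among them was 0.53. Without replicate 2 with HP1α KO Tconv the same values were 0.03, -0.11 and -0.17, and Psmb7 was at -0.06 without replicate 3 of that group. The transcript of Psmb5 shares near-identical stretches with other genes, so its counts are uncertain. Exons of Nek6 on the opposite strand cover 46.8% of the exonic bases of Psmb7.

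**Figure D2:**
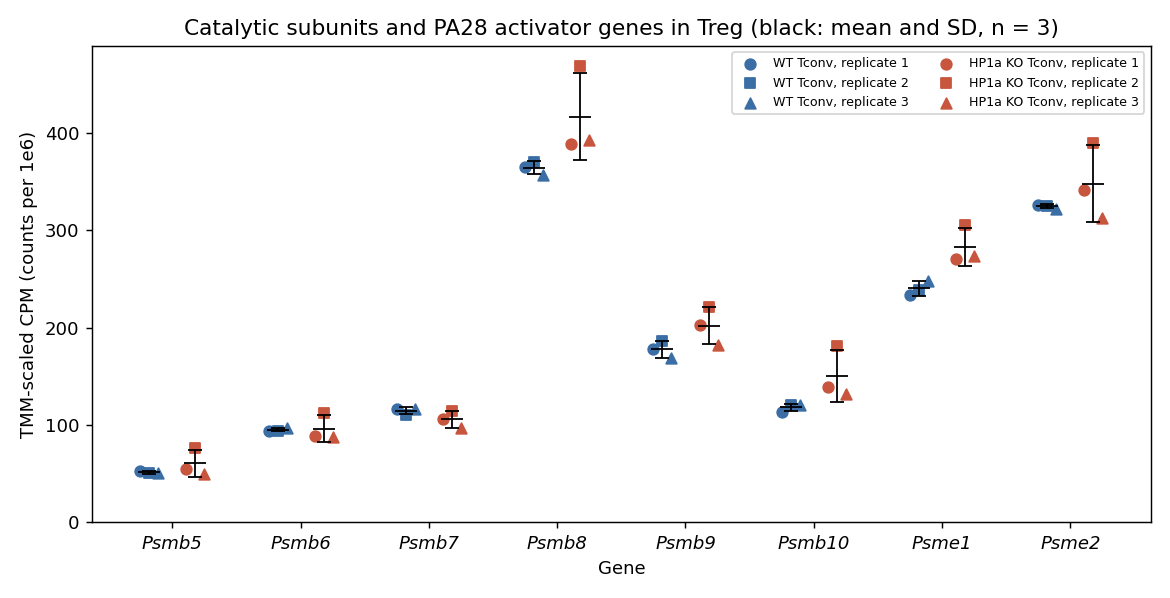
TMM-scaled CPM of the catalytic and PA28 genes in the 6 libraries, as points by group and replicate, with the mean and SD of 3 libraries in black. Psmb8 lies between 357 and 469 CPM and Psmb5 between 49.9 and 76.7 CPM. Replicate 2 with HP1α KO Tconv is the highest point for every gene shown except Psmb7.

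Upstream sequences are shown for the member with the highest fold change, Psmb10, and for Psmb5 and Psmb6, constitutive catalytic genes chosen with the TGACNNNGC match. Psmb7 is not among the members with that match and is not shown. Psmb8, Psmb9 and Psme1 were sought too but did not meet the conditions for printing. These were an entry in the promoter table, a single exact match on GRCm39 and a long enough stretch outside annotated exons. The Psmb10 stretch covers bases 250 to 54 before the start, while the marked matches begin 47 (Psmb5) and 9 (Psmb6) bases before it. The sequences as printed therefore do not compare the 3 genes over the same stretch. When the full 250 bases were searched, Psmb10 had no TGACNNNGC match. The bases are those of the RefSeq promoter table (GRCm38.p6) before the transcript start, kept where no exon is annotated and placed on GRCm39 by exact match. Capitals mark TGACNNNGC, searched on both strands.
Psmb10, chr8:106665078-106665274, minus strand: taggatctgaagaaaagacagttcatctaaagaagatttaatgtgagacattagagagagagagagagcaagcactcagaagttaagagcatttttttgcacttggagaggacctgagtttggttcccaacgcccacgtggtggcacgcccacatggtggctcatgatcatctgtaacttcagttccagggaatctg
Psmb5, chr14:54855482-54855702, minus strand: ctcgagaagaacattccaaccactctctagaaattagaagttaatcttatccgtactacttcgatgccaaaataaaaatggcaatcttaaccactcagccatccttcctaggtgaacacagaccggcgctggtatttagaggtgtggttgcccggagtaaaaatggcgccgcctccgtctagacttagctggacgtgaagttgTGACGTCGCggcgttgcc
Psmb6, chr11:70415933-70416182, plus strand: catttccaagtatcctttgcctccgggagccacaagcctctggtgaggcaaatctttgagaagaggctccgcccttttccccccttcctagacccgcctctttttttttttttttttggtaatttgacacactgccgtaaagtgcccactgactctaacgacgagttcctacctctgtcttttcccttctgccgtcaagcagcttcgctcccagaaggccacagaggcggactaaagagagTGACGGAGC

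TGACNNNGC was in the 250 bases before the start of 5 of 41 members found in that table (12.2%) and in 10.1% of all 27025 promoters. TTCNNNGAA was found before 2 members, Psmb8 and Psmg1 (4.88%, against 7.18%). GAAANNGAA was found before 3 members, Psmb3, Psmd4 and Psmd9 (7.32%, against 7.16%). These matches describe letters in the window and do not show binding.

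Each immunoproteasome gene was set against the gene it replaces, as the log2 ratio of counts in a library, which no scaling between libraries can move. The groups' mean ratios were tested by exact permutation, two-sided, and with 3 libraries a side the p cannot fall below 0.1. Psmb10 to Psmb7 was -0.04, 0.12 and 0.04 with WT Tconv and 0.39, 0.67 and 0.43 with HP1α KO Tconv. The groups did not overlap, the difference was 0.45, and the exact p was 0.1 (0.15 adjusted over the 3 ratios). Psmb9 to Psmb6 was 0.92, 0.98 and 0.80 with WT Tconv and 1.19, 0.98 and 1.07 with HP1α KO Tconv. The difference was 0.18 with an exact p of 0.1 (0.15 adjusted), and the replicates 2 of both groups nearly coincided. Psmb8 to Psmb5 was 2.78, 2.87 and 2.82 with WT Tconv and 2.82, 2.61 and 2.98 with HP1α KO Tconv. Here the groups overlapped, the difference was -0.02 and the exact p was 0.9.

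Per kilobase of exon, the 3 immunoproteasome genes made up 70.9% ± 0.730 (SD, n = 3) of the counts of the 6 catalytic genes with WT Tconv and 73.5% ± 0.695 (SD, n = 3) with HP1α KO Tconv. The single values were 70.5%, 71.7% and 70.4% with WT Tconv and 73.6%, 72.7% and 74.1% with HP1α KO Tconv. The groups did not overlap, and the share is given as a description without a test.

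**Figure D3:**
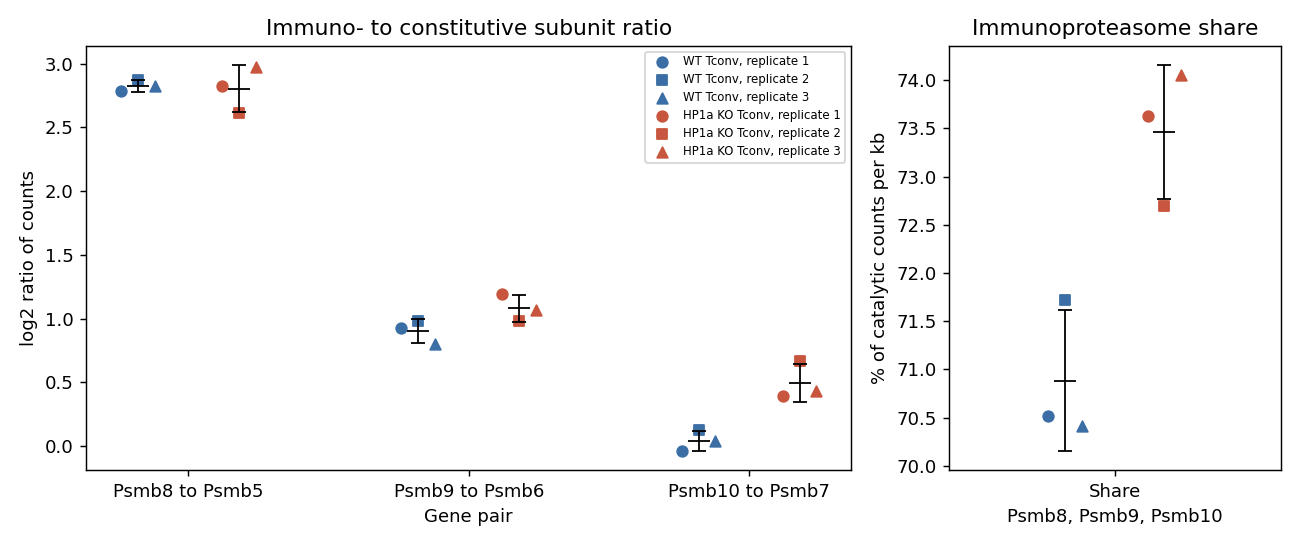
Left, log2 count ratio of each immunoproteasome gene to its constitutive counterpart; right, share of the 3 immunoproteasome genes in the catalytic counts per kb, on an axis that does not start at 0. Points are libraries and black marks are the mean and SD of 3. The groups do not overlap for Psmb10 to Psmb7 (difference of means 0.45) or, narrowly, for Psmb9 to Psmb6 (0.18), and they overlap for Psmb8 to Psmb5.

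Among the activators, Psme1 (ENSMUSG00000022216, chromosome 14, 55815190 to 55822034, plus strand), which encodes PA28 alpha, was at 234, 239 and 248 CPM with WT Tconv and at 271, 306 and 273 CPM with HP1α KO Tconv. The groups did not overlap. Psme1 had a log2 fold change of 0.24 ± 0.07 (SE), the smallest unadjusted edgeR p of the members (0.0104) and an adjusted p of 0.23. Exons of Emc9 on the opposite strand cover 39.6% of its exonic bases. Psme2, the PA28 beta gene, was at 327, 325 and 323 CPM with WT Tconv and at 341, 390 and 313 CPM with HP1α KO Tconv, which overlapped (log2 fold change 0.10, and 0.01 without replicate 2 with HP1α KO Tconv). Psme3, which encodes the nuclear activator PA28 gamma, had a log2 fold change of -0.12 and an edgeR adjusted p of 0.574. It was -0.02 without WT Tconv replicate 3, the library with the high red cell and neutrophil sums.

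The rest of the core differed little. The 7 alpha ring genes lay between -0.07 (Psma6) and 0.03 (Psma4) on the log2 scale, with a median of -0.02. Psma6 was at -0.02 without WT Tconv replicate 1 and at -0.11 without replicate 2 with HP1α KO Tconv. The 4 structural beta genes lay between 0.04 (Psmb4) and 0.14 (Psmb3), with a median of 0.10. Of these, Psmb1 (0.13) and Psmb3 were higher without overlap between groups, as were 11.5% of all genes. The lowest edgeR adjusted p of the 4 was 0.442. Without replicate 2 with HP1α KO Tconv, the structural beta median was 0.04, with Psmb3 at 0.07 and Psmb4 at -0.04, and all 7 alpha ring genes were negative, with a median of -0.11. Psma8, an alpha subunit of germ cells, had 0, 2 and 31 counts with WT Tconv and 5, 1 and 0 counts with HP1α KO Tconv.

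In the 19S particle, 10 of 17 genes (58.8%) had negative log2 fold changes, against 51.5% of all genes, and the median was -0.10. Without replicate 2 with HP1α KO Tconv, 12 of the 17 were negative and the median was -0.0099. The base, which holds the ATPases that unfold substrates, ranged from -0.22 (Psmc5) to 0.10 (Psmd4). The lid, which removes ubiquitin, ranged from -0.26 (Psmd12) to 0.09 (Psmd8). Psmd12 was at 64.2, 60.1 and 62.2 CPM with WT Tconv and at 58.2, 41.7 and 55.9 CPM with HP1α KO Tconv. The groups did not overlap, and the edgeR adjusted p was 0.38. Its log2 fold change was -0.12 without replicate 2 with HP1α KO Tconv, and those of Psmd4 and Psmd8 were then both 0.01. Psmc5 was at 79.1, 76.7 and 77.1 CPM with WT Tconv and at 78.1, 44.8 and 77.0 CPM with HP1α KO Tconv, so that its fold change rested on replicate 2.

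The 7 assembly chaperone genes, which build the rings and the base, ranged from -0.07 (Psmd9) to 0.24 (Psmg4), with a median of 0.09, or 0.06 without replicate 2 with HP1α KO Tconv. Psmg4 was at 7.43, 6.91 and 8.24 CPM with WT Tconv and at 7.82, 10.2 and 8.61 CPM with HP1α KO Tconv, which overlapped, and its log2 fold change was 0.13 without replicate 2 with HP1α KO Tconv. Psme3ip1 had a log2 fold change of 0.14 and Psmc3ip of -0.13; edgeR's adjusted p was 0.53 for the first and 0.757 for the second. Psmc3ip was at -0.01 without WT Tconv replicate 3 and at -0.03 without HP1α KO Tconv replicate 2, and Psme3ip1 was between 0.09 and 0.23 over the fits that left out 1 library.

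Replicate 2 with HP1α KO Tconv set much of the spread between members. Its log2 deviation from the mean of the other 2 libraries of its group had a median of 0.17 over the members and 0.00 over all genes. It was above 0 for 17 of 17 core genes, immunoproteasome genes included, up to 0.55 for Psmb5. In the 19S particle it was below 0 for 9 of 17 genes, down to -0.78 for Psmc5 and -0.61 for Psmd2. No other library had a median deviation over the members beyond -0.07 or 0.02.

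**Figure D4:**
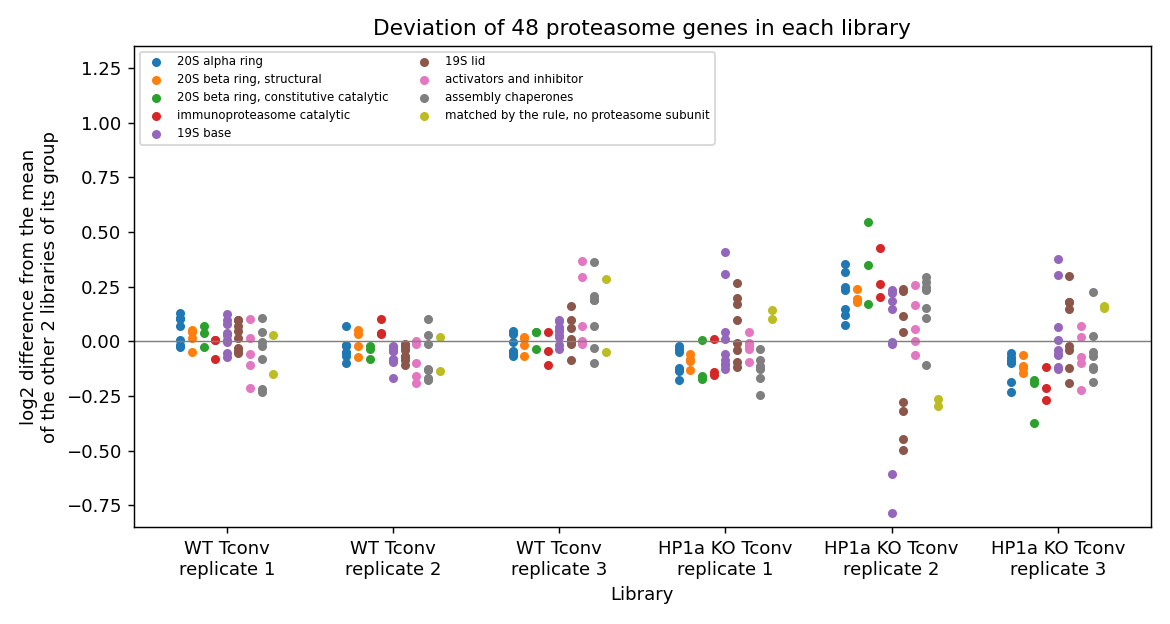
Log2 difference of each of 48 proteasome genes, in each library, from the mean of the other 2 libraries of its group, coloured by role. Replicate 2 with HP1α KO Tconv spans -0.78 to 0.55, with core genes above 0, and the WT Tconv libraries span -0.23 to 0.37.

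When that library was left out, edgeR still called 0 members, and DESeq2 called 5, against 11.3% of the genes to which it gave an adjusted p-value. Leaving out replicate 3 of the same group instead, DESeq2 called 1, Psmb10, against 2.53% of such genes. The 5 were Psme3ip1 (log2 fold change 0.23, DESeq2 adjusted p 0.00671), Psme1 (0.17, adjusted p 0.0277) and Psmb10 (0.19, adjusted p 0.0365), which were higher, and Psmd6 and Psmc6, which were lower. The median log2 fold change of the members was -0.03 in the edgeR fit without that library, and the difference in their summed level changed from 152 to -20.7 CPM. With all 6 libraries the members summed to 5249 CPM on average in the WT Tconv group (SD 67.1, n = 3) and 5401 CPM in the HP1α KO Tconv group (SD 300.7, n = 3).

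Per kilobase of exon, levels over the 6 libraries were highest for Psme2 (142 CPM per kb), Psmb8 (114) and Psmb10 (77.5). The ranges of Psme2 and Psmb8 over the libraries overlapped, as did those of Psmb8 and Psmb10. Within each library the order was the same, with Psme2 above Psmb8 and Psmb8 above Psmb10. With the canonical transcript length in place of all exons, Psme2 and Psmb8 remained ranks 1 and 2 and Psmb10 was at rank 10. Among the tested members, Psmc3ip (1.25 CPM per kb) and the chaperone Psmd9 (1.81) were lowest. The members lie on 16 chromosomes, 9 of them on chromosome 11.

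Of 38 tested genes that work with the proteasome but fall outside the symbol rule, 0 passed the edgeR test after adjustment. At an unadjusted p under 0.05, 3 were higher (7.89%, against 6.98% of all genes) and 4 lower (10.5%, against 7.52%), which is close to the shares over all genes. The higher ones were Irf8, and Tap1 and Tap2, which carry peptides into the endoplasmic reticulum. Of the 9 interferon-linked peptide processing genes, 8 had positive values (88.9%, against 48.5% of all genes), with a median of 0.12, or 0.06 with 2 negative genes when replicate 2 with HP1α KO Tconv was left out. Tap1 was at 456, 473 and 473 CPM with WT Tconv and at 522, 633 and 496 CPM with HP1α KO Tconv, without overlap, with a log2 fold change of 0.24 and an edgeR adjusted p of 0.324. It was 0.12 without replicate 2 with HP1α KO Tconv. Irf1, a transcription factor induced by interferon, had a log2 fold change of -0.11, and its groups overlapped. Of 10 shuttle and segregase genes, 9 had negative values with a median of -0.10, where 51.5% of all genes were negative, and 7 were negative without replicate 2 with HP1α KO Tconv. Zfand2a, a stress-induced proteasome partner, was between 92.2 and 111 CPM with WT Tconv and between 60.7 and 86.5 CPM with HP1α KO Tconv. Its log2 fold change was -0.48. The edgeR test did not call it (adjusted p 0.224), while DESeq2 with all 6 libraries did (adjusted p 0.0193). DESeq2 values of Zfand2a with 1 library left out are not given here. Akirin2, which helps import proteasomes into the nucleus, was at 43.1, 44.5 and 48.3 CPM with WT Tconv and at 36.1, 36.5 and 38.4 CPM with HP1α KO Tconv, with a log2 fold change of -0.29 and an edgeR adjusted p of 0.209. Its DESeq2 adjusted p was 0.0503, and it ranged from 0.0153 to 0.158 over the 6 fits that each left out 1 library, 3 of them under 0.05. Exons of Orc3 on the opposite strand cover 51.8% of the exonic bases of Akirin2. Nfe2l1, which drives transcription of proteasome genes, had a log2 fold change of 0.08, which ranged from 0.03 without HP1α KO Tconv replicate 3 to 0.14 without replicate 2. The subunit Sem1, the ubiquitin receptor Adrm1 and the maturation factor Pomp had log2 fold changes of -0.06, -0.04 and 0.07. Pomp was at 0.03 without HP1α KO Tconv replicate 2 and at 0.03 without WT Tconv replicate 3. They belong to a list of 8 subunit, receptor and maturation genes, of which 7 were negative (87.5%, against 51.5% of all genes), or 6 without replicate 2 with HP1α KO Tconv. Uchl5, a deubiquitinase of the 19S particle, was lowest at -0.39, without overlap between groups and with an edgeR adjusted p of 0.454, and was at -0.18 without replicate 2 with HP1α KO Tconv. Txnl1, a thioredoxin-like 19S partner, was at -0.26, without overlap and with an edgeR adjusted p of 0.285. Sem1 ranged from -0.17 without HP1α KO Tconv replicate 2 to -0.0039 without replicate 3 of that group, and its DESeq2 adjusted p was 0.0329 in the first case and 0.993 in the second.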

How the data were processed

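Total RNA libraries of 6 Treg samples were analysed, 3 per group. The authors trimmed and aligned reads with STAR to GRCm39 and deposited estimated counts per gene from Salmon, not normalized and held as whole numbers. The library kit was stranded. Exons on the opposite strand also cover parts of other named genes. The shares of exonic bases include 39.5% for Psmc5 (Smarcd2), 38.1% for Psmc3ip (Mlx), 31.4% for Irf1 (Gm17334) and 30.8% for Psme2 (Rnf31). The overlapping gene's own counts, over all libraries, were 268% of those of Psmb9 (Tap1), 149% of Akirin2 (Orc3) and 1505% of Psmc3ip (Mlx). They were 4.38% of those of Psmb7 (Nek6), 1.60% of Psme1 (Emc9) and 0.0749% of Irf1 (Gm17334). Such counts are not given for Gm20496, Smarcd2 and Rnf31. Genes were tested with edgeR 4.0.16 in R 4.3.3 (quasi-likelihood F-test, robust, TMM, filterByExpr, Benjamini-Hochberg over 18321 genes), and DESeq2 1.42.0 and limma-voom 3.58.1 were alternatives. On simulated data edgeR recovered most of the large changes and none of a set of smaller ones that still exceeded every member's. The changed genes were drawn from all tested genes, whose median standard error in the real data was 0.157, against 0.085 over the members. The simulation therefore does not give the power for the members. A p that misses the threshold does not show that values did not differ. CPM are counts over TMM-scaled totals, and marker sums use unscaled totals. Deviations between libraries used log2 of CPM plus 0.5. Exonic lengths and positions came from GENCODE, which matched 28854 of 29199 identifiers, and near-identical transcripts were those with at least 95% identity over 200 bases. Replicate pairs differed by more than sampling noise (chi-square per degree of freedom 21.3 to 174). Some listed partner genes are not reported here. The members and lists were chosen with earlier results of these data known. Named genes were the catalytic, PA28 and listed partner genes, the highest and lowest of each role list, and members with an unadjusted p under 0.05. Psmd6, Psmc6, Psmd2, Psmb1, Tap2, Txnl1, Zfand2a and Akirin2 were named after their values were seen, as were the extremes of the lists outside the rule.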

Additional observations from a re-analysis of the deposited data

How the results depend on the processing

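The count of 0 members past the adjusted threshold held under DESeq2, limma-voom, the other normalizations and filters, the replicate block, and edgeR with each library left out. DESeq2 with 1 library left out, added after seeing the data, called 5 members without KO Tconv replicate 2 (11.3% of the genes given an adjusted p-value) and 1 (Psmb10) without KO Tconv replicate 3 (2.53% of such genes). The 2 members at an unadjusted p under 0.05 became 4 with total counts only (15.2% of all genes had such a p), 5 without a filter (9.87%) and 1 to 6 with a library left out of the edgeR fit (1 without WT Tconv replicate 1, against 10.6%, and 6 without KO Tconv replicate 2, against 16.4%). DESeq2 with all 6 libraries gave 3 of 49 members such a p, against 9.23% of all genes. It gave 4, 9 and 6 of 49 without KO Tconv replicates 1, 2 and 3, against 9.84%, 12.4% and 8.6% of all genes. Without WT Tconv replicates 1, 2 and 3 it gave 2 of 49 each time, against 8.99%, 9.46% and 7.92%. With the replicate number as a block there were 4 (11.4% of all genes). The labels do not say that the numbers pair the samples, so they were not taken to do so. Deviations of same-numbered libraries had correlations of -0.07, 0.17 and 0.12, and all combinations of a WT and a KO Tconv library ran from -0.20 to 0.17. These correlations cannot decide whether samples were paired, because deviations within a group of 3 libraries sum to 0. The difference in immunoproteasome share was 2.58 percentage points and 3.56 with canonical transcript lengths.

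The Psmb8 to Psmb5 difference ranged from -0.11 to 0.075 (without KO Tconv replicates 3 and 2), and the summed level difference from -20.7 to 255 CPM (without KO Tconv replicates 2 and 3). Small log2 fold changes changed sign as libraries were left out of the edgeR fit, with the ranges -0.098 to 0.015 for Adrm1, -0.23 to 0.035 for Irf1, -0.050 to 0.092 for Psma4, -0.041 to 0.092 for Psmb4, -0.11 to 0.080 for Psmb6, -0.17 to 0.061 for Psmd9 and -0.051 to 0.13 for Ubqln4. Under DESeq2 without KO Tconv replicate 2, Psma4, Psmb4 and Psmb6 were at -0.055, -0.046 and -0.12. Without KO Tconv replicate 3, Adrm1, Irf1 and Ubqln4 were at 0.0084, 0.036 and -0.051. Ubqln4 was at -0.045 without KO Tconv replicate 1 and -0.00025 without WT Tconv replicate 2, and Psmd9 at 0.057 without WT Tconv replicate 3. The cause was not tested. Psma8 had too few counts to be tested.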
